A study of Mus musculus with 14 samples.

Results

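A group of 10 genes of the tumour necrosis factor (TNF) ligand family are described here in regulatory T cells of the lymph node: Tnfsf11, which encodes RANKL, with Tnf, Lta, Ltb, Tnfsf14, Tnfsf8, Tnfsf9, Cd40lg, Fasl and Tnfsf10. They were chosen by symbol, and all 10 were found among the 14449 genes of the expression table and among the 12329 genes that passed the filter on low values, a CPM (the reads of a gene relative to the scaled size of its library) over 1 in at least 3 libraries. The cells were CD4+Foxp3eGFP+ T cells, sorted by a fluorescent reporter of the Treg factor Foxp3, from the lymph nodes of 35-day-old BALB/c mice. Wild-type mice gave 7 libraries and Il1rn-/- mice, which lack the IL-1 receptor antagonist, gave 7. The sample titles carry a letter, a (3 libraries per genotype) or b (4 per genotype), which the labels do not explain and which is called a set below. The labels do not say whether libraries came from separate or pooled animals, so p-values measure only the spread between libraries.

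Ligands of the TNF family are mostly trimeric membrane proteins that T cells show on their surface after antigen contact, and several are also shed or secreted. RANKL binds RANK on osteoclast precursors and is the factor that drives their differentiation, and osteoprotegerin is its soluble decoy. The title of the study names osteoclastogenic Tregs driven by IL-1β, so the comparison of RANKL transcripts between genotypes bears on its question. TNF and lymphotoxin-α signal through the TNF receptors, while lymphotoxin-β anchors lymphotoxin-α in the membrane and signals through the lymphotoxin-β receptor in lymph node architecture.

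The promoter stretches of Tnfsf11 and Tnf are shown because RANKL is the ligand the title points to and Tnf lies in a cluster of 3 ligand genes whose levels are compared below. Each runs over the 250 bases before the annotated start, read 5′ to 3′ from RefSeq on GRCm38.p6, at chr14:78308044-78308293 (minus strand) for Tnfsf11 and chr17:35202008-35202257 (minus strand) for Tnf. Capitals mark matches, on either strand, to GGAAA (the core bound by NFAT), TGANTCA (AP-1), GGG and TTTCC with 2 free bases between them (an NF-kB-like pattern) and TATAAA (the TATA box).
Tnfsf11: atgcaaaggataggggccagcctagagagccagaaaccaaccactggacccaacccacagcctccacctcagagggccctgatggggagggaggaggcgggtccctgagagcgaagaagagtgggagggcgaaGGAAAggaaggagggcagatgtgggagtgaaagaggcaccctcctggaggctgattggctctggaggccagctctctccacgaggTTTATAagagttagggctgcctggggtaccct
Tnf: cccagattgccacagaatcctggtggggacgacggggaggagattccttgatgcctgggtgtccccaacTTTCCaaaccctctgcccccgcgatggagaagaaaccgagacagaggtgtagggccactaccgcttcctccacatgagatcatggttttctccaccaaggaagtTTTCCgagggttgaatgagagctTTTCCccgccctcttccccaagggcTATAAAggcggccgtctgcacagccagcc
Both stretches held a TATAAA match near the start, its first base at -32 on the minus strand in Tnfsf11 and at -29 on the plus strand in Tnf, and 12.4% of the 32851 promoters in the reference hold 1. GGAAA was found at -117 in Tnfsf11 and at -181, -77 and -54 in Tnf, and in all 8 of the ligand promoters at hand, against 55.6% of all promoters. TGANTCA was found in 1 of the 8 (Tnfsf14), against 6.75%. A broader NF-kB-like pattern, GGG and CC with 5 free bases between them, was searched first and was found in 6 of the 8, with 2 matches each in Tnfsf11 and Tnf, but 45.8% of all promoters hold it. The narrower pattern was searched after that share was seen, and was found in 1 of the 8 (Ltb), against 1.41%. These matches describe the letters only, and Tnfsf9 and Cd40lg were not searched.

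The libraries held 952021 to 3756559 reads. They stood apart in a way that the letters did not follow: Rn45s, the ribosomal RNA precursor, took 59.6% to 65.8% of reads in 6 libraries, here called shallow (every wild-type library of set b with Il1rn-/- 1-b and 2-b), and 20.3% to 39.95% in the other 8, called deep (all of set a with Il1rn-/- 3-b and 4-b). Outside Rn45s the shallow libraries had 384360 to 905988 reads and the deep ones 1654868 to 2805693, and mitochondrial ribosomal RNA took 2.97% to 4.12% of these remaining reads in shallow and 8.82% to 16.6% in deep libraries, with no overlap. Reads of Y-linked genes numbered 374 to 808 in 4 of the deep libraries (Il1rn-/- 3-b and 4-b, wild-type 1-a and 2-a) and at most 2 in the others. The defining Treg markers Cd3e, Cd4, Foxp3, Il2ra, Ikzf2 and Ctla4 had reads in every library. Their summed level was 1288 to 1999 CPM in deep and 2029 to 2454 CPM in shallow libraries. The markers did not move together. Of the 6, 5 differed between the library groups (adjusted p under 0.05 by limma), 2 higher and 3 lower in deep libraries. Of all tested genes 36.1% differed there. Il1rn is not in the table used here, so the genotype labels were not checked by the targeted gene. In bulk RNA, fewer cells with a transcript and less transcript per cell cannot be told apart.

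Per transcript length, Ltb was the leading ligand in every library. Its level was 394 ± 125 CPM per kilobase (mean ± SD, n = 14), 19.2-fold that of the next ligand, and it made up 84.3% of the summed level of the 10. It lay at the 99.4th percentile of the 11136 tested genes with an annotated length. Lta followed at 20.5 ± 8.57 and Tnf at 16.4 ± 5.85 CPM per kilobase, and Cd40lg, which encodes the T cell ligand that activates B cells and dendritic cells through CD40, reached 12.1 ± 3.44. Lta was above Tnf in 11 of 14 libraries, Tnf above Cd40lg in 10 and Cd40lg above Tnfsf10 in 13.

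**Figure D1:**
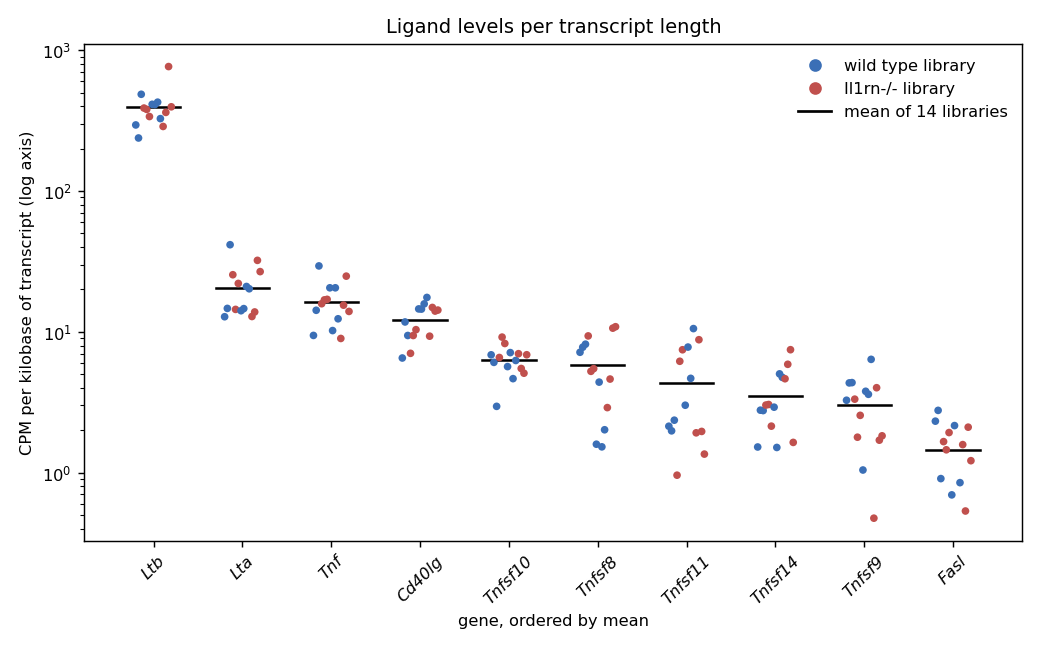
Level of each ligand in CPM per kilobase of its longest coding transcript, on a log axis, with 1 point per library coloured by genotype and a bar at the mean of 14 libraries; the Fasl library with 0 reads cannot be drawn on this axis. Ltb stands 19.2-fold above the next ligand, and the points of neighbouring ligands overlap from Lta to Fasl.

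Between neighbours from Tnfsf10 down to Tnfsf9 the order was not resolved, given the spread between libraries. Tnfsf10, which encodes the death ligand TRAIL, had 6.29 ± 1.53 CPM per kilobase, and Tnfsf8, which encodes CD30 ligand, had 5.84 ± 3.23, with Tnfsf10 the higher in 8 of 14 libraries. RANKL's Tnfsf11 had 4.37 ± 3.18 CPM per kilobase, which placed it in seventh position and at the 49.0th percentile of tested genes, and it was above Tnfsf14 in 7 of 14 libraries. Tnfsf14, which encodes LIGHT, had 3.51 ± 1.79, and Tnfsf9, which encodes 4-1BB ligand, 3.03 ± 1.57. Fasl, the ligand of the death receptor Fas, had 1.44 ± 0.782, and Tnfsf9 was above it in 12 of 14 libraries. The order differed between the library groups described above. Tnfsf11 was at position 5 in the shallow libraries (mean of 6.12 CPM per kilobase, next to Tnfsf10 at 6.03) and at position 7 in the deep ones (3.05), while Tnfsf8 was at position 9 in shallow (2.84) and at position 5 in deep libraries (8.09). These levels are per length and describe the sorted population as a whole.

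Over all libraries, none of the 10 ligands was too weak to compare by the limit used, a median under 10 reads in both genotypes. At a limit of 20 reads 3 were: Tnfsf11 (medians of 19 reads in wild type and 14 in Il1rn-/-), Tnfsf9 (15 and 9) and Fasl (6 and 11). At 10 reads Tnfsf9 thus passed only through wild type and Fasl only through Il1rn-/-. Within set b both were too weak by that limit, with medians in wild type and Il1rn-/- of 5.5 and 7 for Tnfsf9 and 2.5 and 6 for Fasl. Fasl had 0 reads in wild-type 3-b, the library with the fewest reads, which allows up to 3.48 CPM there (3 reads). The receptor RANK (Tnfrsf11a) had 0 to 3 reads per library, 0 in 6 of 14, and was not tested.

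The Tnfsf11 values of the genotypes overlapped in both sets. Here and below, the values of a group are listed in the order of replicate numbers. On the log2 CPM scale Tnfsf11 was at 2.28, 2.17 and 2.42 in the wild-type libraries of set a and at 1.16, 3.80 and 4.07 in its Il1rn-/- libraries. In set b it was at 2.77, 4.13, 3.40 and 4.57 in the wild-type libraries and at 2.13, 4.30, 2.16 and 1.64 in the Il1rn-/- libraries. In set a, 2 Il1rn-/- libraries lay above all wild-type libraries and 1 lay below them, and in set b 3 of 4 Il1rn-/- libraries lay below all wild-type libraries and 1 lay within their range. The reads behind these values ran from 7 in Il1rn-/- 1-b, with an exact 95% Poisson interval of 2.81 to 14.4 for counting error only, to 76 in Il1rn-/- 3-a (59.9 to 95.1).

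The Tnfsf11 difference, Il1rn-/- minus wild type with the set as covariate, was -0.36 ± 0.51 (log2, estimate ± SE, n = 7 each; adjusted p = 0.897 by limma). Its 95% confidence interval of -1.43 to 0.72 spans a level from 2.69-fold lower to 1.64-fold higher, and an exact two-sided permutation of genotypes within sets gave p = 0.56. Within the sets the difference was 0.71 ± 0.72 in set a and -1.16 ± 0.63 in set b (adjusted p = 1 and 0.389 by limma). The difference between those values was -1.87 ± 0.96 (adjusted p = 0.651 by limma), so opposite directions in the sets were not established. With single libraries left out the set a value ran from 0.18 (without Il1rn-/- 3-a) to 1.64 (without Il1rn-/- 1-a), and was 0.32 without Il1rn-/- 2-a. The set b value ran from -1.74 (without Il1rn-/- 2-b) to -0.85 (without Il1rn-/- 4-b), and the genotype difference from -0.65 (without Il1rn-/- 3-a) to -0.11 (without Il1rn-/- 1-a). With the library group in place of the set the genotype difference was -0.05 ± 0.48. In set b it was -0.50 ± 0.72 with the library group as a further covariate. That set b value compares only Il1rn-/- 1-b and 2-b with the wild-type libraries, all of which are shallow.

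No ligand differed between genotypes past the threshold. By limma 0 of 10 passed an adjusted p of 0.05, and 0.0% of the 12329 tested genes did (679 had an unadjusted p under 0.05). One ligand, Tnfsf8, had an unadjusted p under 0.05. Estimates were positive for 7 and negative for 3, with a median of 0.13, against 0.04 over all tested genes. The values of the genotypes overlapped for all 10 ligands over all libraries (0.0324% of tested genes did not overlap), in set a (7.97%) and in set b (4.28%). Within set a, within set b and for the difference between the sets, 0 of 10 passed, as did 0.0% of tested genes in each comparison, with 243, 1848 and 968 genes at an unadjusted p under 0.05.

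**Figure D2:**
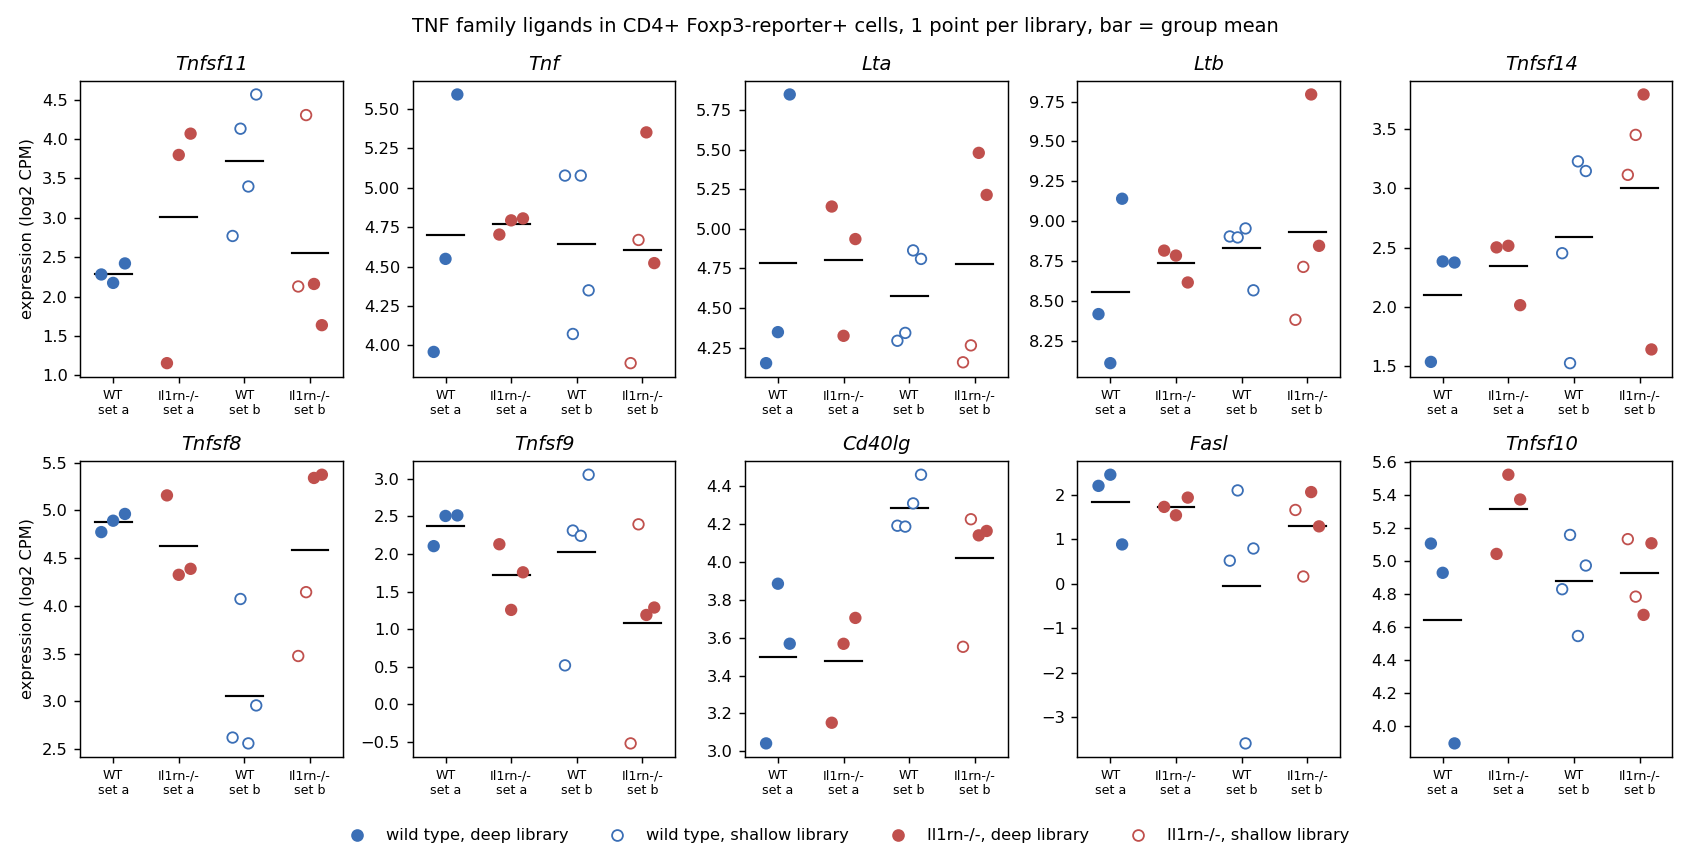
Level of each ligand in log2 CPM, with 1 point per library, grouped by genotype and set; filled points are deep and open points shallow libraries, and bars are group means. Axes differ between genes and do not start at 0; the 8 deep libraries of Tnfsf8 lie at 4.33 to 5.37, all above its 6 shallow libraries.

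The lymphotoxin and TNF genes, Ltb, Tnf and Lta, are consecutive protein-coding genes on chromosome 17. Ltb averaged 8.71 ± 0.36 in wild-type and 8.85 ± 0.45 log2 CPM in Il1rn-/- cells (SD, n = 7 per genotype), with the lowest, median and highest libraries at 8.11, 8.90 and 9.14 and at 8.38, 8.78 and 9.79. Its genotype difference was 0.14 ± 0.20, with an interval of -0.29 to 0.57. Tnf was at 4.67 ± 0.60 and 4.68 ± 0.43 log2 CPM, a difference of 0.01 ± 0.26 with an interval of -0.53 to 0.55. Lta was at 4.67 ± 0.59 and 4.79 ± 0.53 log2 CPM, a difference of 0.12 ± 0.27 with an interval of -0.44 to 0.69. The 3 genes thus had the differences nearest to 0 together with Cd40lg, and their signs changed under other settings, among them the shallow libraries alone (-0.28 for Ltb, -0.37 for Tnf and -0.37 for Lta). The means of wild type and Il1rn-/- for Ltb were 8.56 and 8.74 log2 CPM in set a and 8.83 and 8.93 in set b. For Tnf they were 4.70 and 4.77 in set a and 4.64 and 4.61 in set b. For Lta they were 4.78 and 4.80 in set a and 4.58 and 4.78 in set b.

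LIGHT and CD40 ligand did not differ between genotypes past the threshold either. Tnfsf14, whose product binds HVEM and the lymphotoxin-β receptor, was at 1.53, 2.38 and 2.37 log2 CPM in the wild-type libraries of set a and 2.50, 2.51 and 2.01 in its Il1rn-/- libraries. In set b it was at 2.45, 1.52, 3.23 and 3.15 in wild-type and 3.12, 3.45, 3.79 and 1.64 in Il1rn-/- libraries. The groups overlap in both sets, and the genotype difference was 0.34 ± 0.37 (0.25 ± 0.58 in set a, 0.41 ± 0.50 in set b). Within set b Tnfsf14 passed the limit of 10 reads only through Il1rn-/-, with medians of 8 reads in wild type and 17.5 in Il1rn-/-. Cd40lg averaged 3.95 ± 0.50 in wild-type and 3.79 ± 0.40 log2 CPM in Il1rn-/- cells (SD, n = 7 per genotype), a difference of -0.16 ± 0.20 with an interval of -0.58 to 0.25. Its set a values were 3.04, 3.89 and 3.57 in wild-type and 3.15, 3.57 and 3.70 in Il1rn-/- libraries. In set b they were 4.19, 4.19, 4.31 and 4.46 in wild-type and 3.55, 4.23, 4.14 and 4.16 in Il1rn-/- libraries. Of these 4 Il1rn-/- libraries, 3 lay below all wild-type libraries of the set. Exact two-sided permutation of genotypes gave an unadjusted p = 0.9 in set a and 0.114 in set b.

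**Figure D3:**
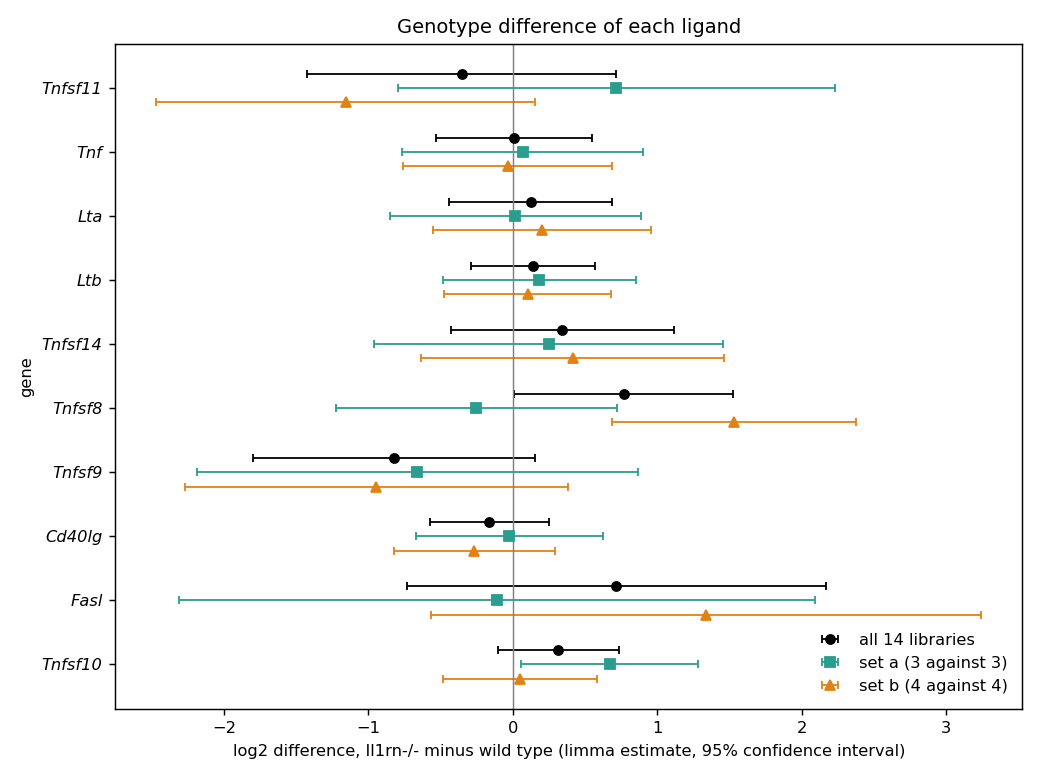
Log2 difference of each ligand, Il1rn-/- minus wild type, as limma estimates with 95% confidence intervals for all 14 libraries, set a and set b. No adjusted p is under 0.05; the Tnfsf8 interval of set b (0.69 to 2.37) lies above 0 and that of set a (-1.23 to 0.72) spans it.

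CD30 ligand had the smallest unadjusted p of the 10. Tnfsf8 was at 4.77, 4.89 and 4.96 log2 CPM in the wild-type libraries of set a and at 5.16, 4.33 and 4.39 in its Il1rn-/- libraries. In set b it was at 2.62, 4.07, 2.56 and 2.96 in the wild-type libraries and at 3.47, 4.14, 5.34 and 5.37 in the Il1rn-/- libraries. In set a the wild-type values lie inside the Il1rn-/- range. In set b the 2 high Il1rn-/- libraries, 3-b and 4-b, are the 2 deep libraries of the set, while of the other 2, 1-b lies within and 2-b just above the wild-type range.

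The genotype difference of Tnfsf8 was 0.77 ± 0.36 (adjusted p = 0.787 by limma), with 6 of 7 Il1rn-/- values over the mean of wild type. It was -0.25 ± 0.46 in set a and 1.53 ± 0.40 in set b (adjusted p = 0.254 by limma). An exact two-sided permutation of genotypes within sets gave an unadjusted p = 0.109 over all libraries, 0.4 in set a alone and 0.0571 in set b alone. The difference between the sets was 1.78 ± 0.61 (adjusted p = 0.610 by limma). With the library group in place of the set the genotype difference was 0.34 ± 0.27. It was 0.04 ± 0.27 within the deep and 0.76 ± 0.46 within the shallow libraries. In set b it was 0.76 ± 0.38 with the library group as a further covariate. This repeats the shallow comparison, because every wild-type library of set b is shallow. Both values compare Il1rn-/- 1-b and 2-b alone with those wild-type libraries.

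4-1BB ligand and TRAIL followed in unadjusted p. Tnfsf9, whose product costimulates T cells through 4-1BB, was at 2.10, 2.51 and 2.51 log2 CPM in the wild-type libraries of set a and 2.13, 1.26 and 1.76 in its Il1rn-/- libraries. In set b it was at 0.52, 2.31, 2.24 and 3.06 in wild-type and at -0.52, 2.39, 1.19 and 1.29 in Il1rn-/- libraries, on 1 to 15 reads. The groups overlap in both sets. The difference was -0.82 ± 0.47 (adjusted p = 0.787 by limma) and -0.95 ± 0.47 with the library group in place of the set. Within the sets it was -0.66 ± 0.73 in set a and -0.94 ± 0.63 in set b. In set b the medians of both genotypes were under the limit of 10 reads, so no direction is read there. The differences over all libraries include these values, and Tnfsf9 passed the limit only through wild type (medians of 15 reads, and 9 in Il1rn-/-).

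Tnfsf10 was at 5.10, 4.93 and 3.89 log2 CPM in the wild-type libraries of set a and 5.04, 5.52 and 5.37 in its Il1rn-/- libraries. In set b it was at 4.83, 5.16, 4.54 and 4.97 in wild-type and 5.13, 4.78, 4.67 and 5.11 in Il1rn-/- libraries, which lie within the same range. Its genotype difference was 0.31 ± 0.20 (adjusted p = 0.792 by limma) and 0.33 ± 0.20 with the library group in place of the set. Within the sets it was 0.67 ± 0.29 in set a, where wild-type 3-a is low, and 0.05 ± 0.25 in set b, a difference between sets of -0.62 ± 0.39. Without wild-type 3-a the set a value was 0.30, so the larger part of it rested on that library.

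Fasl, the remaining death ligand, was at 2.20, 2.45 and 0.88 log2 CPM in the wild-type libraries of set a and 1.72, 1.54 and 1.93 in its Il1rn-/- libraries. In set b it was at 0.52, 2.09, the value of 0 reads and 0.79 in wild-type and 1.65, 0.16, 2.06 and 1.29 in Il1rn-/- libraries. The groups overlap, and the difference of 0.72 ± 0.69 was 0.03 without wild-type 3-b, the library at 0 reads.

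Levels of CD30 ligand separated the deep from the shallow libraries. Tnfsf8 was at 4.33 to 5.37 log2 CPM in the 8 deep libraries (78 to 177 reads) and at 2.56 to 4.14 in the 6 shallow ones (5 to 34 reads), with no overlap, as did 14.9% of tested genes and 1 of the 10 ligands. With genotype as covariate the difference, deep minus shallow, was 1.50 ± 0.27 (2.83-fold, adjusted p = 0.000207 by limma), and 1 of 10 ligands passed, against 36.1% of tested genes. It was 1.55 ± 0.44 (adjusted p = 0.0251 by limma) between the 2 deep and 2 shallow Il1rn-/- libraries of set b, which share genotype and set. In that comparison both deep libraries also hold the Y-linked transcripts.

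**Figure D4:**
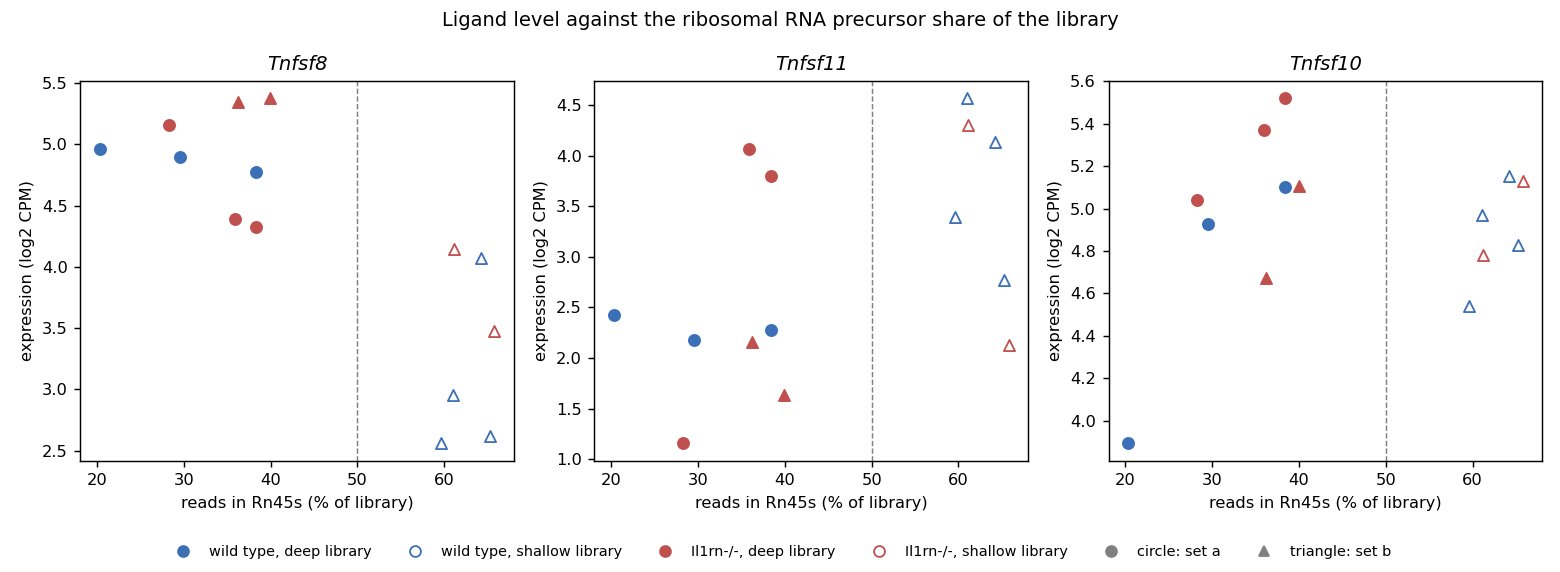
Level in log2 CPM of Tnfsf8, Tnfsf11 and Tnfsf10 against the share of reads in Rn45s, with 1 point per library coloured by genotype, circles for set a, triangles for set b, open for shallow libraries, and a dashed line at the 50% limit between library groups. Deep libraries lie higher for Tnfsf8, while the groups overlap for Tnfsf11 and Tnfsf10.

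Other ligands did not pass between the library groups. Tnfsf11 was at 1.16 to 4.07 log2 CPM in deep and 2.13 to 4.57 in shallow libraries, a difference of -1.07 ± 0.48 (adjusted p = 0.0893 by limma) in the direction opposite to Tnfsf8. It passed the threshold when Il1rn-/- 1-b (-1.53), 2-a (-1.22) or 3-a (-1.25) was left out. Cd40lg differed by -0.50 ± 0.23 (adjusted p = 0.0960 by limma), Tnfsf14 by -0.63 ± 0.38, Lta by 0.48 ± 0.25 and Fasl by 1.39 ± 0.70, which was 0.75 ± 0.43 without wild-type 3-b, the library at 0 reads. Cd40lg passed without Il1rn-/- 1-b (-0.69) and Lta without wild-type 1-a (0.67). The library groups differ in depth, in the shares of Rn45s and mitochondrial ribosomal RNA and in Y-linked transcripts, and the part of each in these values was not tested. Scaled by total reads alone, which shifts the median gene to 0.79 against 0.12 as deposited, 6 ligands passed (Tnfsf8, Tnfsf10, Tnf, Lta, Ltb and Fasl), against 56.0% of tested genes (6865 of 12261), and Cd40lg (0.17) and Tnfsf14 (0.0324) changed direction.

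CD40 ligand was the ligand that differed between the lettered sets. Cd40lg was at 3.04 to 3.89 log2 CPM in the 6 libraries of set a and at 3.55 to 4.46 in the 8 of set b, which overlap through Il1rn-/- 1-b. The difference, b minus a with genotype as covariate, was 0.67 ± 0.20 (1.59-fold, adjusted p = 0.0260 by limma), and 1 of 10 ligands passed, against 19.5% of tested genes. It was 0.77 ± 0.31 (adjusted p = 0.493 by limma) with the library group as covariate and 0.02 when scaled by total reads alone. Leaving out wild-type 1-a, Il1rn-/- 1-a, wild-type 4-b or Il1rn-/- 2-b also ended the call, at 0.55 to 0.64. Tnfsf8 differed by -0.93 ± 0.37 (adjusted p = 0.0787 by limma), and passed without Il1rn-/- 3-b (-1.11) or 4-b (-1.12), the deep libraries of set b.

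Within the 8 deep libraries, the 45 pairs of ligands gave no correlation that passed adjustment. The closest pair in opposite directions was Tnfsf11 and Tnfsf8, with a Pearson's r of -0.878 (exact permutation p = 0.00744, adjusted 0.309) and a Spearman's rho of -0.833 (exact permutation p = 0.0154, adjusted 0.346), and r was -0.504 without Il1rn-/- 2-a and 3-a. Among the chromosome 17 neighbours r was 0.808 for Tnf with Lta, 0.742 for Lta with Ltb and 0.733 for Tnf with Ltb (exact permutation p = 0.0137, 0.0283 and 0.0408, adjusted 0.309, 0.367 and 0.367), with rho of 0.643, 0.857 and 0.595. Without the 2 libraries farthest from the median, wild-type 3-a and 1-a, these r were 0.493, 0.751 and 0.861. Of 5224 genes with a mean of 4 or more log2 CPM, Ubqln1 (r = 0.972, rho = 0.905), Chpf (0.965, 0.762) and Esyt1 (0.953, 0.738) had the highest r with Tnfsf11. Those with the highest r with Ltb were Gtf2b (0.986, 0.929), Gtf2a2 (0.985, 0.929) and Rabac1 (0.983, 0.857). These are descriptions over 8 libraries that share depth differences. The r with Tnfsf11 were not recomputed without Il1rn-/- 2-a and 3-a, the 2 libraries farthest from its median.

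Receptors of these ligands were measured in the same cells. Of 16 receptor genes listed, 14 are in the table used here, 13 were tested and 0 passed between genotypes, with a median difference of 0.02. Tnfrsf1b, the TNF receptor 2 of Tregs, averaged 7.87 ± 0.35 in wild-type and 7.92 ± 0.19 log2 CPM in Il1rn-/- cells (SD, n = 7 per genotype) and differed by 0.05 ± 0.16. Tnfrsf9, the receptor of 4-1BB ligand, differed by 0.17 ± 0.17, Fas by 0.24 ± 0.19 and Tnfrsf14, the LIGHT receptor HVEM, by -0.14 ± 0.13. Tnfrsf14 differed between deep and shallow libraries by -0.63 ± 0.13 (adjusted p = 0.000729 by limma), 1 of 2 among 13 receptors that passed there, against 36.1% of tested genes.

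Genes that act behind the receptors or induce the ligands were also compared. Between library groups 36.1% of tested genes passed (4447 of 12329, 2464 higher and 1983 lower in deep libraries), which is the background of the counts that follow. Of 22 adaptor and NF-kB genes, 0 passed between genotypes (18 positive, 4 negative, median 0.12, or -0.0031 with the library group in place of the set), while 12 passed between library groups, 11 higher and 1 lower in deep libraries. Tnfaip3, the A20 inhibitor of NF-kB, was 2.68 ± 0.59 higher in deep libraries and Traf1 0.54 ± 0.13 higher (adjusted p = 0.00136 and 0.00289 by limma). Of 19 genes that act in induction of the ligands after antigen receptor signalling, 0 passed between genotypes and 8 between library groups, 4 higher and 4 lower in deep libraries. The AP-1 genes Fos, Junb and Jun were higher there by 4.16 ± 0.47, 3.42 ± 0.35 and 2.77 ± 0.28 (adjusted p = 9.93e-07, 2.68e-07 and 2.37e-07 by limma), in the same libraries in which Tnfsf8 was high, and the part of these factors in the Tnfsf8 level was not tested.

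Genes that act on ligand mRNA and protein gave no genotype call either. Of 9 genes for mRNA stability, 0 passed (2 positive, 7 negative, median -0.18). Zfp36l2, which promotes decay of AU-rich transcripts, averaged 6.01 ± 0.54 in wild-type and 5.51 ± 0.48 log2 CPM in Il1rn-/- cells (SD, n = 7 per genotype), and differed by -0.50 ± 0.18 (adjusted p = 0.787 by limma), and its relative Zfp36l1 by -0.39 ± 0.16. Between library groups 3 of the 9 passed, against 36.1% of tested genes. Zfp36, the tristetraprolin gene, was 1.56 ± 0.24 higher in deep libraries, while Zfp36l2 differed by -0.84 ± 0.16 (adjusted p = 4.89e-05 and 0.000360 by limma). Of 6 tested genes for cleavage of membrane ligands, 0 passed between genotypes, with Adam17, the TNF-converting enzyme, at -0.14 ± 0.18 and Adam10, which sheds several ligands, at 0.03 ± 0.28. Of 8 further family ligands, 3 are in the table used here and 1, Tnfsf13b, which encodes BAFF, was tested, on 0 to 5 reads.

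Other cell types could carry some of these ligands, so their markers are given as measured. B cell markers had reads for 7 of 7 genes, in every library for 4 of them, and summed to 17.5 to 70.8 CPM in deep and 17.2 to 60.3 CPM in shallow libraries. Of 6 tested, 5 had a positive difference, deep minus shallow, with a median of 1.62, and 2 passed as higher in deep libraries. Dendritic cell markers (4 of 7 in the table used here) summed to 16.2 to 37.7 CPM in deep and 38.3 to 125.6 CPM in shallow libraries, and CD8 T and NK cell markers (6 of 8) to 27.5 to 49.5 and 43.0 to 77.5 CPM. Monocyte and macrophage markers (5 of 7, Cd14 at 0 in most libraries) summed to 2.15 to 25.9 and 6.74 to 12.1 CPM. Stromal and endothelial markers, of interest because stroma also makes RANKL, summed to 64.8 to 107.3 and 66.2 to 81.7 CPM for 5 of 9 genes. Of these 5, only 1 had reads in every library and 2 passed the filter, with Madcam1 and Cxcl13 at 0 in most libraries. The dendritic and the monocyte lists likewise held 1 gene each with reads in every library. Innate lymphoid cell markers, several of which Tregs also express, summed to 106.4 to 223.4 and 94.1 to 207.2 CPM, plasma cell markers to 48.6 to 184.7 and 122.0 to 186.9 CPM with Jchain and Sdc1 at 0 in most libraries, and Ifng, the only effector cytokine of 6 in the table used here, to 1.54 to 13.8 and 0 to 1.03 CPM. Only 2 of the 5 plasma cell genes had reads in every library, and the list shares Prdm1 with the genes of ligand induction above. The part of any of these cell types in the ligand levels was not tested.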

How the data were processed

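RNA from sorted lymph node CD4+ Foxp3-reporter+ cells was made into Smart-Seq2 libraries, and Cuffquant 2.2.1 quantified the transcripts, per the labels' protocols. Cufflinks 2.2.1, Cuffnorm, TopHat2 2.0.10 and BWA are named in the submitters' processing notes. Build, annotation, strand handling and the tool that wrote the table were not given in the sources used here. The authors deposited log2 CPM of 14449 genes in 14 libraries.

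The deposited values proved to be per scaled library size (scaling factors 0.690 to 1.61), where total reads had been assumed, with a common prior of 0.0834 CPM (0.25 read at the mean size), and the lowest value of the table stands for 0 reads. Whole reads were recovered for 100% of values within 0.001. Reads per library were 952021 to 3756559, and without molecular identifiers they are not independent molecules, so intervals cover counting error only.

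Genes over 1 CPM in at least 3 libraries were fitted on the deposited scale with limma 3.58.1 (R 4.3.3, intensity trend), genotype and set as terms, or 4 groups, with two-sided moderated tests and Benjamini-Hochberg adjustment over 12329 genes at 0.05. The prior can understate fold changes of low genes, but the low value given to 0 reads can also enlarge them. The Fasl genotype difference of 0.72 was 0.26 with log2 of CPM plus 1 and 0.32 with a prior of 2 reads. Library groups were set by an Rn45s share over 50%. Single ligands were also tested by exact permutation of genotypes within sets (1400 relabellings; set b alone 70). In set a, 20 relabellings cannot reach 0.05 (smallest p 0.1). Lengths are of the longest coding transcript in GENCODE vM21, for 90.3% of tested genes. Promoters came from RefSeq for 8 of 10 ligands. Correlations used all relabellings of 8 libraries.

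The named genes were the 10 ligands, up to 4 genes per fixed list with the highest mean, and the 3 genes most like Tnfsf11 and the highest ligand. Members and lists were chosen with earlier results of these data known. The fits were tested on simulated data in which only genes with more reads than low ligands such as Tnfsf11 were changed. No difference between sets or library groups was simulated, so that test covers neither. Alternatives covered filter, prior, scaling, variance model, weights, covariates, subsets, a replicate block and each library left out. Some choices were made after values had been seen: the form of the filter, the narrower NF-kB-like pattern, scaling by total reads, the libraries without Y-linked transcripts, the comparison within Il1rn-/- set b, the block between library groups, and which fitted differences the text gives. Other work used Python 3.11.15, numpy 2.4.6, pandas 2.3.3 and matplotlib 3.10.9.

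Same-numbered libraries did not deviate together (correlations of deviations -0.151 to 0.000517), so numbers were not taken as pairs.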

Additional observations from a re-analysis of the deposited data

Results flagged for a closer look

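Among the ligands, 8 values stood apart from the rest of their group, over 40 groups checked, where chance flags about 1 in 20 (5%). Each is a library whose gap to its nearest neighbour is large against the range of its group, on the log2 CPM scale. Tnfsf9 was low in wild-type 1-b (0.5168, on 2 reads, against a median of 2.3118 over 7 wild-type libraries) and in Il1rn-/- 1-b (-0.5222, on 1 read, against 1.2868 over 7). Fasl was low in wild-type 3-b (-3.5843, on 0 reads, against 0.8809) and in Il1rn-/- 2-b (0.1613, on 2 reads, against 1.6545). Cd40lg was low in Il1rn-/- 1-b (3.5521, against 4.1524 over the 4 libraries of that group). Lta was high in wild-type 3-a (5.8473, on 327 reads, against 4.3488). Ltb was low in wild-type 4-b (8.5665, against 8.9011 over 4) and high in Il1rn-/- 3-b (9.7944, on 2832 reads, against 8.7843). All 4 flagged values of Tnfsf9 and Fasl rest on at most 2 reads.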

How the results depend on the processing

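Over all 10 ligands and 6 comparisons, 1480 differences were recomputed under the alternatives: 1358 kept direction and call, 100 changed direction, 6 lost a call and 16 gained one. 787 of these belong to the differences that the text gives, a choice made after seeing such totals, and of them 33 changed direction, 6 lost and 11 gained a call; the other 693 held 67 changes of direction and 5 gained calls. No ligand passed between genotypes, in either set or for the difference between sets under any alternative run.

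The following genotype differences changed direction. With the library group in place of the set Lta was -0.0144 and Tnf -0.0731. In deep libraries alone Cd40lg was 0.25, Fasl -0.13 and Tnfsf11 0.27, and in shallow ones alone Lta was -0.37, Ltb -0.28 and Tnf -0.37. Over the 10 libraries without Y-linked transcripts Lta was -0.61, Ltb -0.33 and Tnf -0.53. Tnf was -0.0133 with libraries centred on their medians and -0.0642 scaled by reads outside ribosomal RNA, and Tnfsf11 was 0.0532 with library weights. In set b Tnfsf10 was -0.0550 scaled by reads outside ribosomal RNA and -0.0005895 with limma voom on recovered reads. With single libraries left out the genotype differences ran from -0.0090 to 0.33 for Lta, -0.0130 to 0.24 for Ltb and -0.14 to 0.17 for Tnf, Tnfsf14 in set a from -0.0350 to 0.41, and Tnfsf10 in set b from -0.0622 to 0.14. The causes were not tested.

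Between sets, the 1 ligand called became 4 scaled by total reads (6152 of 12261 genes called), 2 with library weights (4091 of 12329) and 0 with the library group as covariate (12 of 12329), under which Tnfsf8 was 0.50, and 0 to 2 with single libraries left out. Between library groups, the 1 ligand called became 6 scaled by total reads (6865 of 12261 genes called), where Cd40lg was 0.17 and Tnfsf14 0.0324, and 1 to 3 with single libraries left out. Within Il1rn-/- set b Cd40lg was 0.26. Weak ligands numbered 0 at medians of 10 and 5 reads and 3 at 20. The filter on CPM without the prior (12270 genes) called 0 genes by genotype, 2401 by set and 4433 by library group, against 0, 2408 and 4447.

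With the replicate block 0 ligands passed by genotype, and Tnfsf8 kept 0.77 and Tnfsf11 -0.36. Each block lies within 1 set, so set b minus set a could not be fitted with it. The difference between the sets in the genotype difference was fitted with the block, and 0 ligands passed. Between library groups the block, an alternative added after seeing the data, called 1086 of 12329 genes, against 4447 without it, and 1 ligand, Tnfsf8, at 2.57 ± 0.46 (adjusted p = 0.00362 by limma), while Tnfsf11 was -2.42 ± 0.83 (adjusted p = 0.0881 by limma). Only the blocks of replicates 3-b and 4-b hold both a deep and a shallow library. These values thus rest on the deep Il1rn-/- 3-b and 4-b against the shallow wild-type 3-b and 4-b. Library group and genotype change together there, and they are told apart only by taking the genotype difference from the other blocks. The standard errors of the genotype differences of Tnfsf11, Tnfsf9 and Fasl were 0.47 to 0.69 in the main fit and 0.40 to 0.74 with the block.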
